A study of Danio rerio with 15 samples.

Results

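The genes described here encode proteins that the liver of a zebrafish larva secretes into blood plasma, apolipoproteins, and the vitellogenins of yolk. They were chosen by name: a probe set counted when its only annotated gene symbol matched a fixed pattern of apolipoprotein, vitellogenin, fibrinogen, clotting factor, complement, serpin, carrier and protease inhibitor symbols. Of 10795 probe sets with 1 symbol, covering 8793 genes, 72 matched, and they represent 62 genes. Where a gene had several probe sets, the one with the highest mean over all arrays stood for it. These 62 genes are 13 apolipoproteins, 7 carriers and lipid transfer proteins, 10 clotting and fibrinolysis genes, 9 complement genes, 20 protease inhibitors and 3 vitellogenins. A mean log2 value of 3.90 bounds the lowest 40% of the 15502 probe sets tested. In all, 38 of the 62 genes lay above it and 24 below.

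The study exposed zebrafish (Danio rerio) larvae to fluoxetine or sertraline, which are selective serotonin reuptake inhibitors (SSRIs), and measured RNA from whole larvae on 15 Affymetrix arrays. The groups were fluoxetine at 25 µg/L, fluoxetine at 250 µg/L, sertraline at 25 µg/L, sertraline at 250 µg/L and a control without SSRI, called fluoxetine 25, fluoxetine 250, sertraline 25, sertraline 250 and control below. Each group had 3 beakers of about 100 larvae, pooled into 1 array per beaker, so n = 3 throughout. In all 5 groups the larvae were 72 h past fertilisation at the start, were kept for 96 h in 200 ml of water, and had no food other than their own yolk; no strain, sex or genetic change is named. The labels do not say whether the beakers were stocked on separate occasions, so the p-values measure the spread between beakers.

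Hepatocytes make most plasma proteins. Apolipoproteins coat the lipid particles that carry fat and cholesterol, fibrinogen and the clotting factors seal wounds, complement proteins mark and lyse microbes, and protease inhibitors restrain the enzymes of both cascades. In a larva that lives on yolk, lipoproteins are also assembled by the yolk syncytial layer and by enterocytes. Vitellogenins are yolk precursors that the adult female liver makes under oestrogen, and an embryo receives them as protein from its mother.

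The values are log2 probe set signals and a difference is exposed minus control, with the standard error (SE) of a limma fit over all 15502 probe sets and p-values adjusted by Benjamini-Hochberg. The log2 values ran from 0.737 to 15.49, array medians ran from 4.57 to 4.65, and the r of 2 arrays over all probe sets, which are not independent of each other, was 0.982 to 0.997. The gene fkbp5, which encodes a glucocorticoid-induced co-chaperone, fell by 4.99 at fluoxetine 25 (adjusted p = 1.05e-06), the largest fall among all probe sets in that comparison. Because it stands out in these same data, it is not an independent check of exposure. At fluoxetine 250 its values were 9.17, 9.09 and 9.49, against 10.27, 10.18 and 10.28 in control. That difference did not pass (adjusted p = 0.113). The gene was also below every control array at sertraline 25, at 8.399, 7.609 and 8.144, and at sertraline 250, at 9.573, 8.982 and 8.576. At sertraline 25 its difference was -2.19, the lowest among all probe sets in that comparison. At sertraline 250 its difference did not pass. The GAPDH 3' minus 5' difference, a sign of RNA quality, ran from 1.53 to 2.36 at fluoxetine 25, 1.16 to 1.74 at fluoxetine 250, 1.95 to 2.17 at sertraline 25, 1.77 to 3.16 at sertraline 250 and 1.55 to 1.73 in control. The liver marker fabp10a, a bile acid-binding protein of hepatocytes, had log2 values of 9.02 to 12.08 over the 15 arrays, so liver RNA was present on every array. The hepatocyte enzyme genes tdo2a, hpda and fah also lay above the low limit, the liver transcription factor gene hnf4a lay below it with a mean of 3.41, and pah was not measured. In whole larvae, fewer cells of a type and less RNA per cell cannot be told apart.

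At fluoxetine 25, 1 of the 62 genes passed an adjusted p under 0.05. This was rbp4l, a retinol-binding protein gene, which fell; 2.53% of all probe sets passed in either direction, 0.864% higher and 1.66% lower. The median difference was 0.35 over the 62 genes and 0.06 over all probe sets, and 60 of the 62 differences were above 0, as were 64% of all. At fluoxetine 250, 0 genes passed in limma, against 1.15% of all probe sets, while 20 had an unadjusted p under 0.05, against 10.7% of probe sets, and 19 of these were higher in the exposed larvae, against 5.13%. Their median difference was 0.66, against -0.02 over all probe sets. All 3 fluoxetine 250 arrays lay above all 3 control arrays for 24 of 62 genes, an arrangement seen in 6.86% of probe sets.

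At sertraline 25, 0 genes passed in limma, against 0.0645% of probe sets, and 0 had an unadjusted p under 0.05, against 3.99%. The median difference was -0.08, against -0.03 over all probe sets, and the exposed arrays lay wholly below control for 6 of 62 genes (9.68%), against 6.44% of all probe sets. At sertraline 250, 0 genes passed, as did 0% of all probe sets, and 3 genes had an unadjusted p under 0.05, against 6.34%. The median difference was 0.27, against -0.04 over all probe sets. All sertraline 250 arrays lay above control for 11 of 62 genes, against 4.5% of probe sets, and 7 of these 11 were apolipoproteins. The 4 comparisons share the same 3 control arrays, so their directions are not independent of each other. A test with unmoderated variances gave 1 call at fluoxetine 25 and 0 in each of the other comparisons with control.

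**Figure D1:**
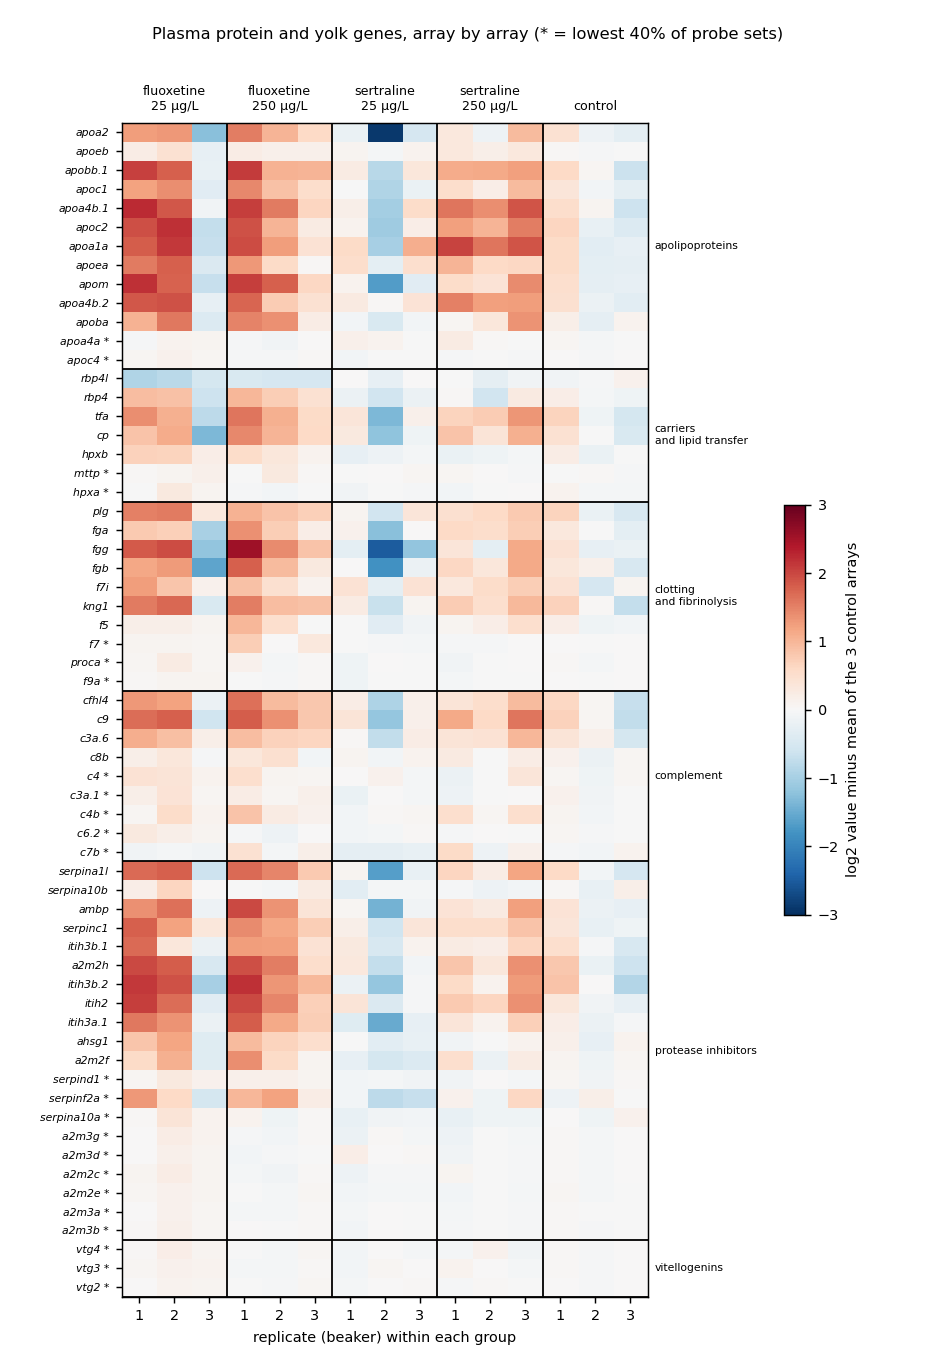
Each row is a gene and each column an array, coloured by its log2 value minus the mean of the 3 control arrays, with an asterisk on the genes in the lowest 40% of probe sets. Most genes without an asterisk are red together at fluoxetine 250 and on fluoxetine 25 replicates 1 and 2, and blue together on fluoxetine 25 replicate 3 and sertraline 25 replicate 2, while rbp4l is blue on all fluoxetine arrays.

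The genes varied together from beaker to beaker within a group. The mean over the 38 genes above the low limit was 7.70, 7.69 and 5.99 on fluoxetine 25 replicates 1, 2 and 3, 7.82, 7.35 and 6.88 at fluoxetine 250, 6.51, 5.55 and 6.44 at sertraline 25, 6.99, 6.79 and 7.33 at sertraline 250, and 6.83, 6.30 and 6.13 in control. Fluoxetine 25 replicate 3 and sertraline 25 replicate 2 lay below every control array, all 3 fluoxetine 250 arrays lay above every control array, and the other groups overlapped control. Fluoxetine 25 replicate 3 was the lowest array of its group for 37 of the 38 genes, against 27.4% of all probe sets above the limit. Fluoxetine 250 replicate 1 was the highest of its group for 36, sertraline 25 replicate 2 the lowest for 36, and control replicate 1 the highest for 36. These counts describe arrays that share their RNA across all genes, so they are not 38 separate observations. The 2 arrays with the largest GAPDH difference were fluoxetine 25 replicate 3, at 2.36, and sertraline 250 replicate 2, at 3.16, whereas sertraline 25 replicate 2 was at 2.17; the part of RNA quality in these swings was not tested.

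The resulting spread limits what the design could detect for these genes. The median within-group standard deviation (SD) was 0.66 for the 38 genes and 0.17 for all probe sets above the limit. A difference between groups had a median 95% interval of 1.05 to either side for the 38 genes, against 0.28 for all probe sets above the limit. Of the 38 genes, 32 varied more than the 90th percentile of probe sets of like mean level. The exceptions were apoeb, rbp4l, hpxb, f5, c8b and serpina10b.

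**Figure D2:**
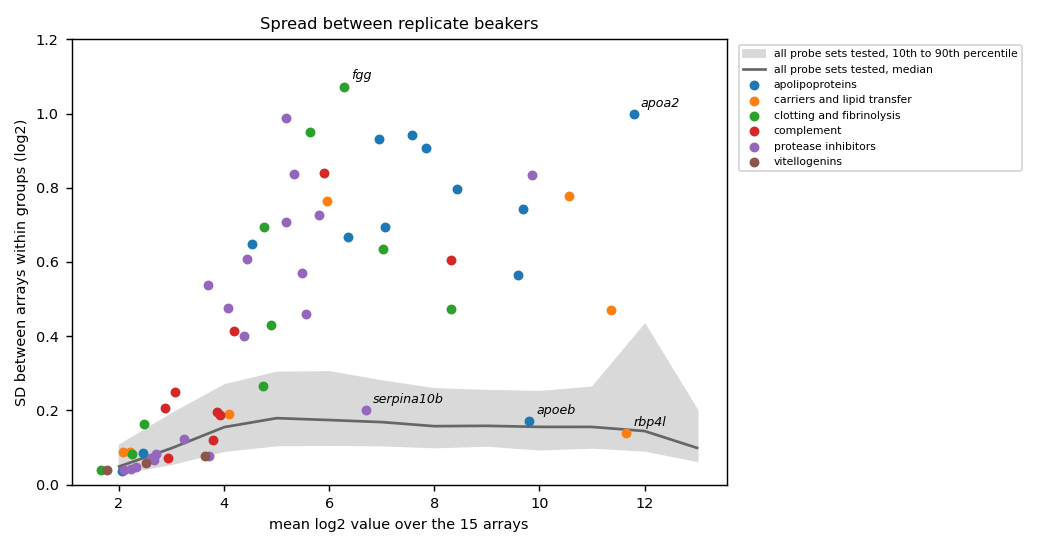
Each point is a gene, with its mean log2 value over the 15 arrays on the horizontal axis and its SD within groups on the vertical axis, coloured by role. The grey line and band give the median and the 10th to 90th percentiles of all probe sets of like mean; most points above a mean of 4 stand over the band, while rbp4l, apoeb and serpina10b lie within it.

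Of the 13 apolipoproteins, 7 lay wholly above control at fluoxetine 250, against 6.86% of all probe sets. The median difference of the 13 was 0.97 at fluoxetine 25, 1.03 at fluoxetine 250, -0.07 at sertraline 25 and 0.75 at sertraline 250. Values are given in the order of replicates 1, 2 and 3. The gene apoa2, which encodes a structural protein of high-density lipoprotein, had log2 values of 12.91, 12.96 and 10.41 at fluoxetine 25, 13.19, 12.69 and 12.25 at fluoxetine 250, 11.45, 8.77 and 11.16 at sertraline 25, 11.98, 11.51 and 12.61 at sertraline 250, and 12.12, 11.50 and 11.36 in control. All fluoxetine 250 arrays were above control, whereas the fluoxetine 25 arrays lay on both sides of it and sertraline 25 replicate 2 stood far below the rest. The difference at fluoxetine 250 was 1.05 ± 0.73 (SE; adjusted p = 0.723) and at sertraline 25 it was -1.20 ± 0.73.

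For apoeb, a ligand of lipoprotein receptors that is also made outside the liver, the values were 9.90, 10.13 and 9.43 at fluoxetine 25, 9.91, 9.82 and 9.83 at fluoxetine 250, 9.77, 9.63 and 9.78 at sertraline 25, 10.00, 9.86 and 10.01 at sertraline 250, and 9.72, 9.64 and 9.68 in control. Both 250 µg/L groups lay wholly above control, and the other groups overlapped it. The sertraline 250 difference was 0.27 ± 0.13 (95% interval -0.01 to 0.56; adjusted p = 0.811). For apoc1, a small apolipoprotein that in mammals restrains lipoprotein uptake and lipolysis, the values were 10.44, 10.61 and 8.88 at fluoxetine 25, 10.66, 10.11 and 9.75 at fluoxetine 250, 9.22, 8.32 and 9.03 at sertraline 25, 9.74, 9.42 and 10.17 at sertraline 250, and 9.59, 9.14 and 8.94 in control. Only the fluoxetine 250 arrays lay wholly above control here.

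The gene apoa4b.1 encodes an apolipoprotein of yolk-derived and intestinal lipid particles. Its values were 9.80, 9.43 and 7.47 at fluoxetine 25, 9.65, 9.12 and 8.21 at fluoxetine 250, 7.74, 6.55 and 8.12 at sertraline 25, 9.18, 8.97 and 9.46 at sertraline 250, and 8.10, 7.65 and 6.95 in control. Both 250 µg/L groups were wholly above control, and fluoxetine 25 replicates 1 and 2 were as well, with replicate 3 inside the control range. The difference was 1.42 ± 0.59 at fluoxetine 250 (adjusted p = 0.379) and 1.64 ± 0.59 at sertraline 250 (95% interval 0.36 to 2.91; adjusted p = 0.650). A further gene, apoa1a, chosen after its values were seen, encodes the main protein of high-density lipoprotein, and gave the largest sertraline 250 difference among the 62 genes. It read 8.52, 8.81 and 6.0 at fluoxetine 25, 8.66, 7.95 and 7.12 at fluoxetine 250, 7.27, 5.70 and 7.78 at sertraline 25, 8.72, 8.29 and 8.57 at sertraline 250, and 7.26, 6.37 and 6.45 in control. The sertraline 250 arrays stood together above control, with a difference of 1.83 ± 0.69 (95% interval 0.33 to 3.34; adjusted p = 0.691).

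Some of these genes are neighbours in the genome. In RefSeq gene order 7 of the apolipoprotein genes, apoa4b.1, apoa4b.2, apoeb, apoc1, apoc4, apoa2 and apoc2, form a run with at most 3 protein-coding genes between neighbours. By the same limit there were runs of 4 and 3 a2m genes and pairs of f7 and f7i, fgb and fga, c3a.6 and c3a.1, itih3b.1 and itih3b.2, apoa4a and apoea, c7b and c6.2, and vtg4 and vtg2. Copies that are close in sequence may share signal on a probe set, so the values of a2m, c3a, itih3, apoa4b and vtg copies are uncertain gene by gene. For the 9 genes with several probe sets, the others can differ in size: the other apoa4b.2 probe set gave 1.75 at fluoxetine 250, against 0.99 for the probe set used. That of apoba gave -0.04, against 1.03, but its mean of 2.58 lay below the low limit.

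Among the 7 carriers and lipid transfer genes, the 1 call against control was rbp4l. Its product, purpurin, is a retinol-binding protein that in fish is made mainly by photoreceptors of the retina, so it entered by name and not as a liver protein. Its values were 11.02, 11.12 and 11.40 at fluoxetine 25, 11.48, 11.44 and 11.43 at fluoxetine 250, 11.95, 11.68 and 11.94 at sertraline 25, 11.93, 11.66 and 11.82 at sertraline 250, and 11.82, 11.91 and 12.07 in control. Every fluoxetine 25 array lay below every fluoxetine 250 array, every fluoxetine array lay below every sertraline and control array, and both sertraline groups overlapped control. The group means were 11.18 ± 0.19 at fluoxetine 25, 11.45 ± 0.024 at fluoxetine 250, 11.86 ± 0.15 at sertraline 25, 11.80 ± 0.14 at sertraline 250 and 11.93 ± 0.13 in control (SD, n = 3 each).

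At fluoxetine 25, rbp4l fell by 0.75 ± 0.11 (95% interval -0.99 to -0.52; adjusted p = 0.00218), a fold of 1.69. It stayed past the threshold without any single array (adjusted p = 0.000664 to 0.0126). In a fit of only the 6 arrays compared, adjusted p was 0.0874, and the change was not shown to be larger than 1.5-fold (adjusted p = 1). The fluoxetine 250 difference was -0.48 ± 0.11 (95% interval -0.72 to -0.25), just outside the threshold at an adjusted p of 0.0603, and 0.0244 without fluoxetine 25 replicate 3. The sertraline differences were -0.08 ± 0.11 and -0.13 ± 0.11 at 25 and 250 µg/L. The test of any difference among the 5 groups gave an adjusted p of 0.00617 for rbp4l, the only one of the 62 genes to pass it, against 2.79% of probe sets.

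The liver gene for the plasma retinol carrier, rbp4, had a different pattern. Its values were 12.13, 12.09 and 10.60 at fluoxetine 25, 12.20, 11.96 and 11.67 at fluoxetine 250, 11.03, 10.64 and 11.05 at sertraline 25, 11.24, 10.64 and 11.47 at sertraline 250, and 11.41, 11.15 and 11.08 in control. Fluoxetine 250 lay wholly above control and sertraline 25 wholly below, with differences of 0.73 ± 0.35 (adjusted p = 0.491) and -0.31 ± 0.35. For hpxb, a hemopexin that binds free heme, the values were 4.66, 4.64 and 4.18 at fluoxetine 25, 4.52, 4.32 and 4.07 at fluoxetine 250, 3.73, 3.83 and 3.91 at sertraline 25, 3.77, 3.84 and 3.90 at sertraline 250, and 4.19, 3.77 and 3.95 in control. The fluoxetine arrays were the highest apart from control replicate 1, and each sertraline group overlapped control. The difference from control was 0.52 ± 0.15 at fluoxetine 25 (adjusted p = 0.0861). The other 4 genes of this group, tfa, cp, mttp and hpxa, had differences from -0.35 to 1.08 across the comparisons with control and did not pass.

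**Figure D3:**
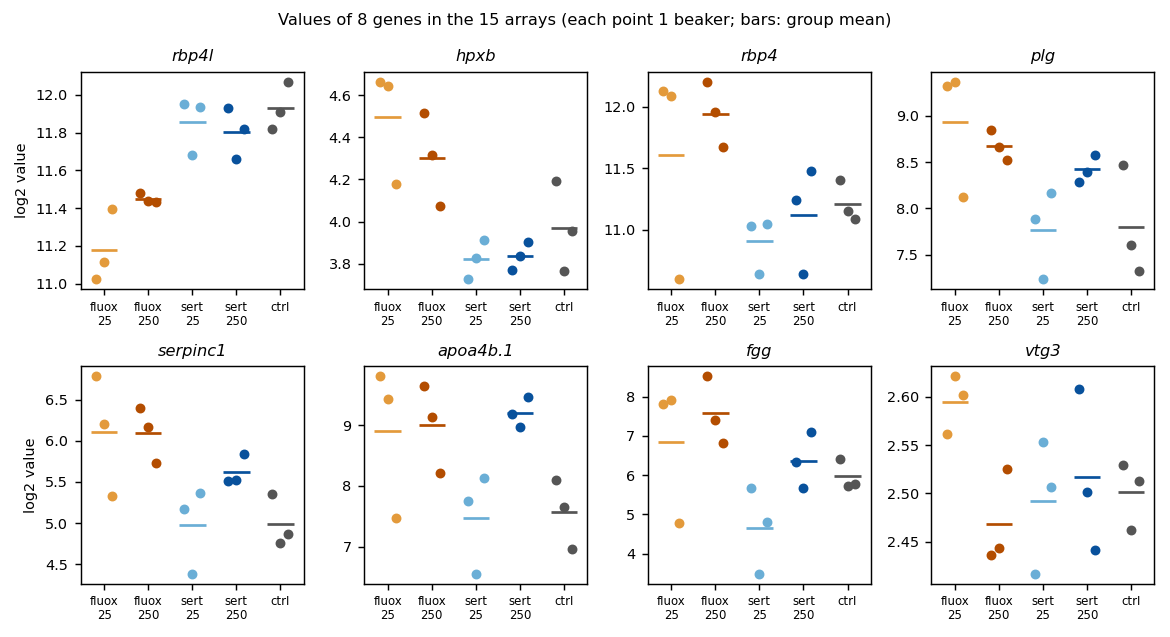
Log2 values of 8 genes (vertical axes, each with its own range) in the 5 groups, with a point per beaker and a bar at the group mean. The fluoxetine points of rbp4l lie below all others, the third fluoxetine 25 point of rbp4, plg, serpinc1, apoa4b.1 and fgg lies far under its group's other points, and the vtg3 axis spans only a small range.

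Of the 10 clotting and fibrinolysis genes, 3 lay wholly above control at fluoxetine 250, against 6.86% of all probe sets, namely plg, fgg and kng1, the last a kininogen. The median difference of the 10 was 0.23 at fluoxetine 25, 0.64 at fluoxetine 250, -0.08 at sertraline 25 and 0.47 at sertraline 250. The gene plg encodes plasminogen, the precursor of the fibrin-dissolving enzyme plasmin. It had values of 9.31, 9.36 and 8.12 at fluoxetine 25, 8.85, 8.66 and 8.52 at fluoxetine 250, 7.89, 7.24 and 8.16 at sertraline 25, 8.29, 8.39 and 8.58 at sertraline 250, and 8.47, 7.61 and 7.33 in control. Fluoxetine 250 was wholly above control by a narrow margin, and fluoxetine 25 replicate 3 lay inside the control range. The difference was 1.13 ± 0.35 at fluoxetine 25 (95% interval 0.37 to 1.89; adjusted p = 0.123).

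The fibrinogen chain gene fga had values of 7.57, 7.49 and 5.80 at fluoxetine 25, 8.15, 7.53 and 6.98 at fluoxetine 250, 6.90, 5.54 and 6.78 at sertraline 25, 7.37, 7.31 and 7.51 at sertraline 250, and 7.10, 6.76 and 6.48 in control. Its sertraline 250 arrays were wholly above control, with a difference of 0.62 ± 0.47. The partner chain gene fgg had values of 7.81, 7.92 and 4.79 at fluoxetine 25, 8.52, 7.39 and 6.83 at fluoxetine 250, 5.68, 3.49 and 4.80 at sertraline 25, 6.34, 5.68 and 7.10 at sertraline 250, and 6.40, 5.73 and 5.79 in control. Fluoxetine 250 was wholly above control and sertraline 25 wholly below it, and the fluoxetine 25 arrays were split around it. The fgg differences, 1.61 ± 0.79 at fluoxetine 250 (95% interval -0.11 to 3.32) and -1.32 ± 0.79 at sertraline 25, did not pass.

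Among the 9 complement genes, 4 lay wholly above control at fluoxetine 250, against 6.86% of all probe sets. Their median differences were 0.24 at fluoxetine 25, 0.24 at fluoxetine 250, -0.08 at sertraline 25 and 0.19 at sertraline 250. For cfhl4, a relative of the complement regulator factor H, the values were 9.16, 9.05 and 7.67 at fluoxetine 25, 9.51, 8.79 and 8.66 at fluoxetine 250, 8.07, 6.92 and 7.99 at sertraline 25, 8.24, 8.37 and 8.80 at sertraline 250, and 8.47, 7.90 and 7.16 in control. For c9, which forms the membrane pore, they were 6.94, 7.07 and 4.68 at fluoxetine 25, 7.08, 6.64 and 6.07 at fluoxetine 250, 5.65, 4.11 and 5.41 at sertraline 25, 6.40, 5.86 and 6.88 at sertraline 250, and 5.95, 5.33 and 4.52 in control. Both genes were wholly above control only at fluoxetine 250, with differences of 1.14 ± 0.45 (adjusted p = 0.343) for cfhl4 and 1.33 ± 0.62 (adjusted p = 0.474) for c9.

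A copy of the central complement component, c3a.6, had values of 4.89, 4.72 and 3.99 at fluoxetine 25, 4.74, 4.51 and 4.44 at fluoxetine 250, 3.84, 3.07 and 4.03 at sertraline 25, 4.19, 4.24 and 4.80 at sertraline 250, and 4.19, 3.96 and 3.27 in control. It followed c9 in lying wholly above control at fluoxetine 250, with a difference of 0.75 ± 0.31 (adjusted p = 0.369). For c6.2, a further component of the pore, the values were 3.20, 3.08 and 2.99 at fluoxetine 25, 2.88, 2.76 and 2.93 at fluoxetine 250, 2.82, 2.86 and 2.94 at sertraline 25, 2.88, 2.93 and 2.90 at sertraline 250, and 2.96, 2.87 and 2.91 in control. It was wholly above control at fluoxetine 25. In all, 11 of the 62 genes had this arrangement at fluoxetine 25, against 18% of probe sets, and all 11 were among the 24 below the low limit. Above the limit, 0 of the 38 genes had it, against 10% of probe sets there. The arrangement was thus more frequent among low-signal probe sets at large, and it does not set c6.2 apart.

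Among the 20 protease inhibitor genes, 8 lay wholly above control at fluoxetine 250, against the same 6.86%. Their median differences were 0.44 at fluoxetine 25, 0.70 at fluoxetine 250, -0.11 at sertraline 25 and 0.10 at sertraline 250. For serpina1l, a relative of the elastase inhibitor alpha-1-antitrypsin, the values were 11.09, 11.19 and 8.76 at fluoxetine 25, 11.08, 10.85 and 10.18 at fluoxetine 250, 9.47, 7.75 and 9.16 at sertraline 25, 10.03, 9.62 and 10.57 at sertraline 250, and 9.99, 9.32 and 8.88 in control. For serpinc1, the thrombin inhibitor antithrombin, they were 6.78, 6.20 and 5.33 at fluoxetine 25, 6.40, 6.16 and 5.73 at fluoxetine 250, 5.18, 4.39 and 5.36 at sertraline 25, 5.51, 5.52 and 5.85 at sertraline 250, and 5.35, 4.76 and 4.86 in control. Fluoxetine 250 was wholly above control for both genes, and sertraline 250 for serpinc1. The serpinc1 difference was 1.11 ± 0.34 at fluoxetine 25 (adjusted p = 0.118) and 1.1 ± 0.34 at fluoxetine 250 (adjusted p = 0.193).

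For itih3a.1, a heavy chain of the inter-alpha-trypsin inhibitor that binds hyaluronan, the values were 5.64, 5.42 and 3.88 at fluoxetine 25, 5.88, 5.20 and 4.80 at fluoxetine 250, 3.69, 2.54 and 3.82 at sertraline 25, 4.42, 4.17 and 4.78 at sertraline 250, and 4.26, 3.89 and 4.03 in control. It was wholly above control at fluoxetine 250, with a difference of 1.23 ± 0.45 (adjusted p = 0.300), and wholly below it at sertraline 25. For serpina10b, which in mammals inhibits activated clotting factors, the values were 6.87, 7.33 and 6.68 at fluoxetine 25, 6.66, 6.62 and 6.92 at fluoxetine 250, 6.36, 6.62 and 6.62 at sertraline 25, 6.65, 6.51 and 6.61 at sertraline 250, and 6.72, 6.47 and 6.85 in control. All its groups overlapped control. Fluoxetine 25 replicate 3 was the lowest array of its group here too. The other groups did not follow the common swing: fluoxetine 250 replicate 3 and control replicate 3 were the highest of theirs and sertraline 25 replicate 1 the lowest. The SD of this gene within groups was 0.20, against a median of 0.66 for the 38 genes above the low limit.

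All 3 vitellogenins lay in the lowest 40% of probe sets, and none of their comparisons passed. For vtg4 the values were 3.67, 3.83 and 3.72 at fluoxetine 25, 3.61, 3.58 and 3.69 at fluoxetine 250, 3.55, 3.64 and 3.57 at sertraline 25, 3.57, 3.76 and 3.53 at sertraline 250, and 3.65, 3.59 and 3.65 in control. Values of vtg3 ran from 2.56 to 2.62 at fluoxetine 25, 2.44 to 2.53 at fluoxetine 250, 2.42 to 2.55 at sertraline 25, 2.44 to 2.61 at sertraline 250 and 2.46 to 2.53 in control. Those of vtg2 ran from 1.77 to 1.86 at fluoxetine 25, 1.73 to 1.81 at fluoxetine 250, 1.71 to 1.79 at sertraline 25, 1.72 to 1.79 at sertraline 250 and 1.74 to 1.77 in control. The 3 genes differed from control by -0.04 to 0.11. The widest interval reached 0.26, at fluoxetine 25 for vtg4. At such low signal a change in transcript may not be seen. Of 12 listed oestrogen response genes, 7 were measured, all below the low limit, and 0 passed against control, with 1 of 28 unadjusted p-values under 0.05. That 1 was at sertraline 25, where 3.99% of all probe sets had one.

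**Figure D4:**
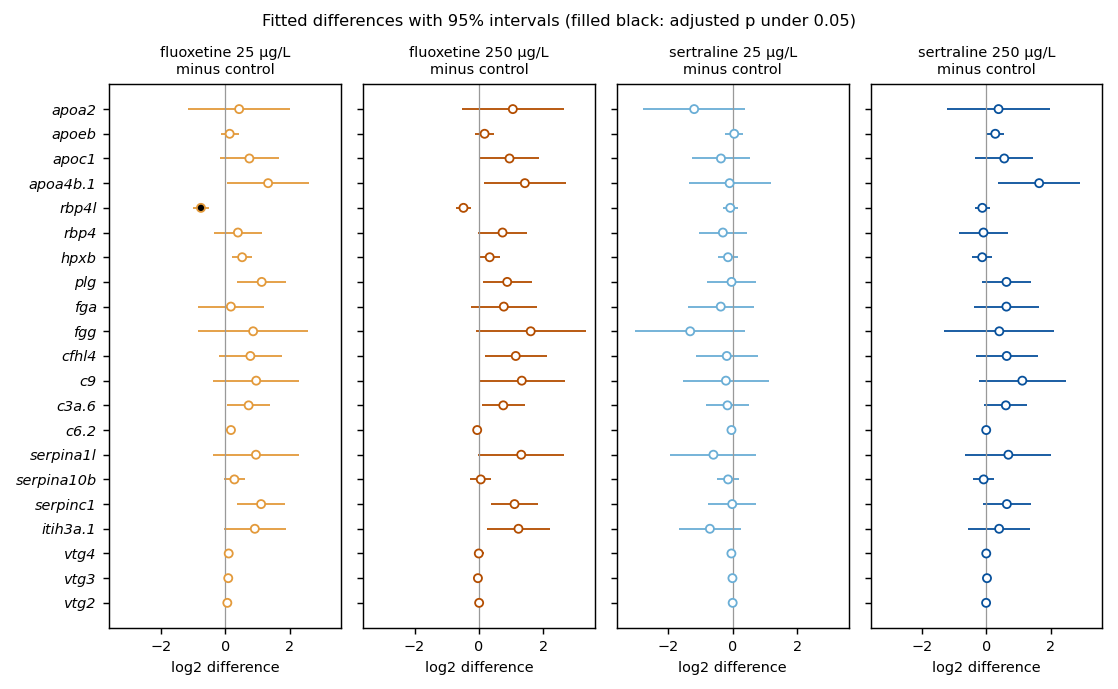
Log2 difference from control (horizontal axis) with its 95% interval for 21 genes in the 4 exposed groups, a black centre marking an adjusted p under 0.05. Only rbp4l at fluoxetine 25 has a black centre, at -0.75; the intervals of apoa2 and fgg are among the widest and those of the vitellogenins lie close to 0.

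A single beaker decided how many genes passed at fluoxetine 25. Without replicate 3, 19 of 62 genes passed, 18 higher and 1 lower, while 6.67% of probe sets passed, and the median difference over the 62 genes was 0.86. This array was the lowest of its group for most of these genes, so leaving it out raises the calls by construction. Apolipoproteins among the 18 included apoa4b.2 (1.89 ± 0.32, adjusted p = 0.00522), apobb.1 (1.92 ± 0.42, adjusted p = 0.0186), whose product is the structural protein of lipoprotein particles, and apoc2 (2.06 ± 0.48, adjusted p = 0.0249), whose product activates lipoprotein lipase. Others were ahsg1, a fetuin that binds mineral (1.02 ± 0.16, adjusted p = 0.00365), the hyaluronan-binding heavy chain itih2 (1.88 ± 0.35, adjusted p = 0.00933), plg (1.54 ± 0.30, adjusted p = 0.0117) and serpinc1 (1.5 ± 0.30, adjusted p = 0.0121). The genes apoa4b.2, apobb.1, apoc2, ahsg1 and itih2 were chosen after their values were seen. The median without fluoxetine 25 replicate 1 was 0.22, and without replicate 2 it was 0.14. At fluoxetine 250 the median was 0.31 without its replicate 1, against 0.66 with all arrays. Without fluoxetine 25 replicate 3, which widens the shared error, 2 genes passed at fluoxetine 250, namely ahsg1 and rbp4l, against 1.59% of probe sets. Without fluoxetine 250 replicate 2 the clotting factor gene f7 passed there, against 0.839% of probe sets. The sertraline 25 median was -0.04 and -0.17 without its replicates 2 and 3 and -0.02 without control replicate 1. The sertraline 250 median was 0.15 without its replicate 3. In the test of any difference, 18 genes passed without fluoxetine 25 replicate 3, against 5.44% of probe sets. In that test 2 passed without fluoxetine 250 replicate 2, fluoxetine 250 replicate 3 or control replicate 1, against 2.22%, 2.37% and 2.17% of probe sets in that order. For the mean of the exposed groups, 2 genes passed without fluoxetine 25 replicate 3, against 1.09% of probe sets, and the median was 0.15 without control replicate 2, against 0.23 with all arrays.

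Sertraline and fluoxetine were set side by side at each concentration. At 25 µg/L, 2 of 62 genes differed, against 2.1% of probe sets: rbp4l was higher in sertraline 25 than in fluoxetine 25 by 0.68 ± 0.11 (95% interval 0.44 to 0.91; adjusted p = 0.00710), and hpxb was lower by a difference of -0.67 ± 0.15 (95% interval -0.99 to -0.36; adjusted p = 0.0388). Both contrasts were free of overlap between the 3 sertraline and the 3 fluoxetine arrays. Of all probe sets, 6.86% were free of overlap in the direction of rbp4l and 28.8% in that of hpxb. The rbp4l call held without any single array (adjusted p = 0.00184 to 0.0480). The hpxb call did not: its adjusted p was above the threshold without fluoxetine 25 replicate 1 (0.0538) or 2 (0.123), fluoxetine 250 replicate 2 (0.0524), sertraline 25 replicate 1 (0.159), 2 (0.0944) or 3 (0.0766), or sertraline 250 replicate 1 (0.0527), 2 (0.0519) or 3 (0.0557). Neither gene passed in a fit of only the 6 arrays compared (adjusted p = 0.133 for rbp4l and 0.168 for hpxb). Over the 62 genes the median difference was -0.60, and without fluoxetine 25 replicate 3 it was -1.09, with 30 genes past the threshold and 6.5% of probe sets.

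At 250 µg/L, 0 genes passed between sertraline and fluoxetine in limma, against 1.37% of probe sets, and 6 had an unadjusted p under 0.05, against 12% of probe sets. The differences were 0.35 ± 0.11 for rbp4l (95% interval 0.12 to 0.59; adjusted p = 0.168), -0.47 ± 0.15 for hpxb (95% interval -0.78 to -0.15; adjusted p = 0.175) and -0.83 ± 0.35 for rbp4. With 1 array left out, 1 gene passed without fluoxetine 25 replicate 3 (ahsg1), against 1.88% of probe sets, and 1 without fluoxetine 250 replicate 2 (f7), against 1.12%, both genes chosen after their values were seen. Between the concentrations of a drug, 0 genes passed for fluoxetine, against 0.252% of probe sets, with 5 at an unadjusted p under 0.05, against 18.8%. For sertraline 0 passed, against 0% of probe sets, with 10 at an unadjusted p under 0.05, against 4.86%. Sertraline 250 lay wholly above sertraline 25 for 32 of 62 genes, against 5.49% of probe sets, with a median difference of 0.40. The widest such differences in the named genes were 1.73 ± 0.59 for apoa4b.1 (95% interval 0.46 to 3.0; adjusted p = 0.767) and 1.72 ± 0.79 for fgg. The test of unequal dose effects of the drugs gave 0 calls, against 0.00645% of probe sets, and 2 genes at an unadjusted p under 0.05, against 9.25%. The mean of the 4 exposed groups against control gave 0 calls, against 0.69% of probe sets, and 5 genes at an unadjusted p under 0.05, against 7.95%.

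Other liver genes varied with the plasma protein genes across arrays. Of 47 listed hepatocyte genes that are not plasma proteins, 26 were measured. Their mean ran from 5.88 to 6.90 at fluoxetine 25, 6.49 to 6.98 at fluoxetine 250, 5.81 to 6.29 at sertraline 25, 6.42 to 6.67 at sertraline 250 and 5.97 to 6.36 in control. Fluoxetine 25 replicate 3 and sertraline 25 replicate 2 were again the lowest arrays of their groups, and both 250 µg/L groups lay above every control array. Of these 26, only nr0b2a, which encodes a repressor induced by bile acids, rose at fluoxetine 25 (1.80 ± 0.37, adjusted p = 0.0212). A fit added after the values were seen took this list mean as a covariate. It gave a median difference of -0.0021 for the 62 genes at fluoxetine 250, against 0.66 without the covariate. In that fit rbp4l (-0.69 ± 0.12, adjusted p = 0.00636), fgb (-0.78 ± 0.17, adjusted p = 0.0261) and serpinc1 (0.62 ± 0.14, adjusted p = 0.0344) passed at fluoxetine 25, against 3.33% of probe sets. In the same fit, between sertraline 250 and fluoxetine 250, apoa1a (1.23 ± 0.27, adjusted p = 0.0399), apoa4b.1 (0.75 ± 0.15, adjusted p = 0.0289) and apoc2 (0.82 ± 0.16, adjusted p = 0.0215) were higher in sertraline 250, against 1.83% of probe sets past the threshold. Without the covariate none of these genes passed there, and the differences of the 13 apolipoproteins ran from -0.70 to 0.62. The sizes of these calls therefore came with the covariate. The covariate is itself measured on the same arrays and may carry part of an exposure effect. Without it, fgb had values of 6.515, 6.645 and 3.784 at fluoxetine 25, against 5.689, 5.499 and 4.881 in control. Its difference was then above 0 and did not pass, so the negative sign for fgb came with the covariate.

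**Figure D5:**
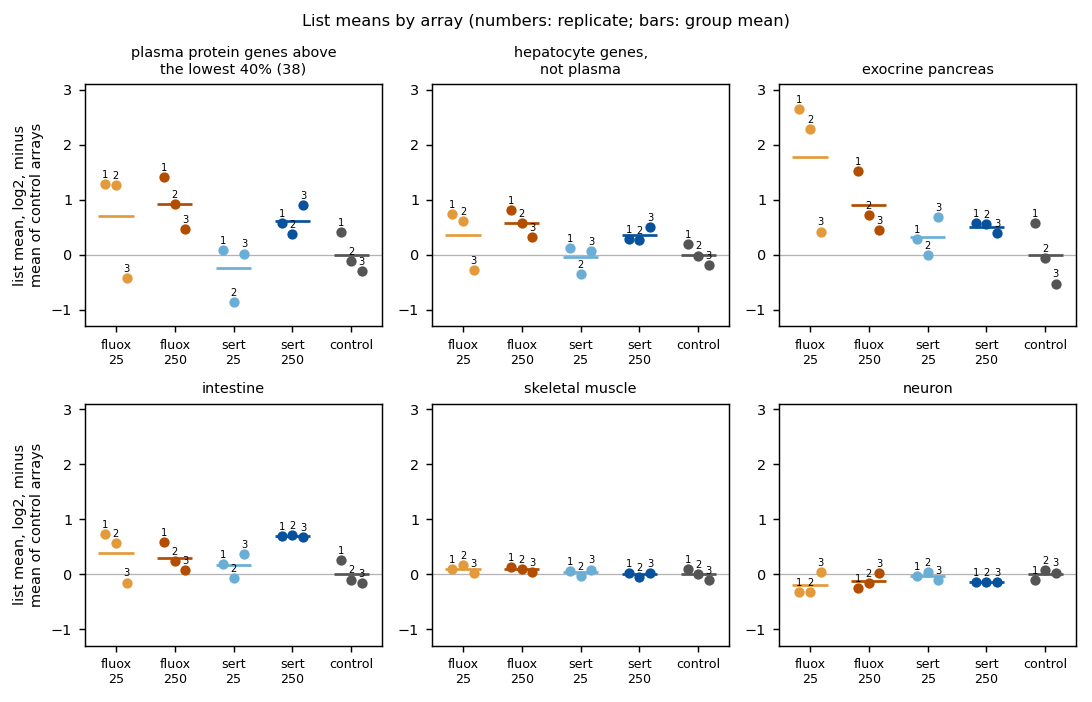
Mean log2 value of 6 gene lists on each array, minus the mean of the 3 control arrays (vertical axis), by group, with a numbered point per replicate and a bar at the group mean. The panel of the 38 plasma protein genes above the low limit and the hepatocyte panel have the same order of arrays within every group, the pancreas panel also has fluoxetine 25 replicate 3 lowest in its group, sertraline 250 stands tightly above control in the intestine panel, the muscle panel stays close to 0, and the neuron panel has fluoxetine 25 replicates 1 and 2 lowest.

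Marker lists of other tissues were set beside these values. Of 35 exocrine pancreas genes 19 were measured and 0 passed against control, with 19 of 76 unadjusted p-values under 0.05, 16 of them at fluoxetine 25, where 19.2% of all probe sets had one. Their list means were 5.08 to 7.30 at fluoxetine 25, 5.11 to 6.18 at fluoxetine 250, 4.65 to 5.34 at sertraline 25, 5.06 to 5.23 at sertraline 250 and 4.14 to 5.24 in control. Of 32 intestine genes 18 were measured, with list means of 4.61 to 5.49 at fluoxetine 25, 4.83 to 5.35 at fluoxetine 250, 4.69 to 5.13 at sertraline 25, 5.44 to 5.48 at sertraline 250 and 4.61 to 5.01 in control. The sertraline 250 means lay wholly above control for the intestine, hepatocyte and erythrocyte lists. They also did for the lipoprotein receptor, acute phase and yolk cell lists described below. The pancreas and muscle means overlapped control there. So did the mean of the 38 plasma protein genes above the low limit, with 6.79 on sertraline 250 replicate 2 and 6.83 on control replicate 1. At fluoxetine 250 the hepatocyte, acute phase and yolk cell means were wholly above control too, as were those of the other complement and coagulation list. The intestine and lipoprotein receptor means overlapped control at fluoxetine 250. The erythrocyte means were wholly above control in both fluoxetine groups. The skeletal muscle list (17 of 26 genes measured) gave 0 calls against control and 7 of 68 unadjusted p-values under 0.05. The erythrocyte list (14 of 19 measured) gave 0 calls and 8 of 56. In the order fluoxetine 25, fluoxetine 250, sertraline 25 and sertraline 250, these were 2, 3, 1 and 1 for muscle and 2, 2, 0 and 4 for erythrocyte. Of all probe sets, 19.2%, 10.7%, 3.99% and 6.34% had one in that order. Of 28 neuron genes 16 were measured, with list means of 8.97 to 9.32 at fluoxetine 25, 9.04 to 9.32 at fluoxetine 250, 9.18 to 9.34 at sertraline 25, 9.14 to 9.16 at sertraline 250 and 9.19 to 9.36 in control. The neuron mean was lowest on fluoxetine 25 replicates 1 and 2, and the sertraline 250 means lay wholly below control. The neuronal transcription factor gene neurod1 rose by 0.56 ± 0.075 at fluoxetine 25 (adjusted p = 0.00126) and by 0.64 ± 0.075 at fluoxetine 250 (adjusted p = 0.00110). The tubulin gene tubb5 fell by 0.48 at fluoxetine 25 (adjusted p = 0.0392) and by 0.55 at fluoxetine 250 (adjusted p = 0.0314), and the other neuron genes did not pass. The median differences at fluoxetine 25 were 1.95 for pancreas, 0.25 for intestine, 0.02 for muscle, 0.08 for erythrocyte and -0.17 for neuron genes. The lowest log2 value among all probe sets was 0.737, so a value above 0 cannot show that a tissue was present. Of the 14 erythrocyte genes measured, only 4 lay above the low limit. The part of these tissues in the differences of the 62 genes was not tested.

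Few genes of the surrounding pathways passed. Among 19 measured of 51 listed lipoprotein receptors, lipases and lipid assembly genes, lipg, which encodes endothelial lipase of high-density lipoprotein metabolism, fell by 1.39 at fluoxetine 25 (adjusted p = 0.000709) and by 0.79 at fluoxetine 250 (adjusted p = 0.0498), and the other 18 did not pass. Of 16 measured of 45 other complement and coagulation genes, 0 passed against control, with 8 of 64 unadjusted p-values under 0.05. In the order fluoxetine 25, fluoxetine 250, sertraline 25 and sertraline 250, these were 5, 2, 0 and 1. Of all probe sets, 19.2%, 10.7%, 3.99% and 6.34% had one in that order. In this list masp2, which encodes a protease of the lectin pathway, was lower in sertraline 25 than in fluoxetine 25 (-0.43 ± 0.097, adjusted p = 0.0460). Among 12 measured of 24 acute phase genes, the cytokine signalling suppressor gene socs3b rose at fluoxetine 250 (0.64 ± 0.14, adjusted p = 0.0449). Other lists also held calls between the drugs. At 25 µg/L, 1 hepatocyte gene and 1 neuron gene were lower in sertraline, against 2.1% of all probe sets past the threshold. At 250 µg/L, 1 acute phase, 1 intestine and 1 erythrocyte gene were higher in sertraline and 1 neuron gene was lower, against 1.37%. Of 20 listed yolk protease and yolk cell genes 13 were measured and 0 passed, with 11 of 52 unadjusted p-values under 0.05. These were 1 at fluoxetine 25, 4 at fluoxetine 250, 1 at sertraline 25 and 5 at sertraline 250, beside the shares of all probe sets given above. The gene ctsd, for a lysosomal protease that cleaves vitellogenin, gave 0.35 ± 0.08 at fluoxetine 250 (adjusted p = 0.0710).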

How the data were processed

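Expression was measured on 15 Affymetrix arrays, 3 per group. The deposited values are on a log2 scale, with 1 value for each probe set on each array. GCRMA and Partek are named in the submitters' processing notes, and their roles and versions are not given in the sources used here. Per the labels, 5 µg of total RNA was labelled with biotin. Values were used as deposited. Of 15617 probe sets, 115 controls were left out. Symbols came from the 1-symbol probe sets of the platform annotation; all 62 genes matched RefSeq gene names by Entrez number. A further 6 matching probe sets with several symbols were not counted.

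A model with 1 mean per group was fitted with limma 3.58.1 (R 4.3.3), with moderation (prior df 2.37, residual df 10) and 11 comparisons, each adjusted by Benjamini-Hochberg over 15502 probe sets at 0.05. Intervals are not adjusted. Precision is limited by the number of arrays. The code was tested on simulated data. Full values are given for genes past the threshold, all vitellogenins, and per role the 2 genes with the smallest p for any difference and the 2 with the highest mean. Genes taken by threshold or smallest p were thus picked on the group differences in these same data. The 62 genes and the 11 gene lists were chosen with earlier results of these data known. Alternatives changed the scaling, filter, prior, moderation, weights, arrays in the fit, replicate block, RNA quality, probe set choice and fold threshold, and left out each array. The hepatocyte covariate was added after seeing the data. Figures used Python 3.11.15 and matplotlib 3.10.9.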

Additional observations from a re-analysis of the deposited data

Results flagged for a closer look

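The retinol-binding protein gene rbp4l differed between the drugs at 25 µg/L: it was higher in sertraline 25 than in fluoxetine 25 by 0.678 on the log2 scale (adjusted p = 0.00710), with sertraline at 11.68 to 11.95 and fluoxetine at 11.02 to 11.40. The hemopexin gene hpxb differed the other way, by -0.673 (adjusted p = 0.0388), with sertraline at 3.73 to 3.91 and fluoxetine at 4.18 to 4.66. Because both drugs were set against the same controls, each of these tests is also the test of a difference between the responses to the drugs. The hpxb call was not stable: with single arrays left out, its adjusted p ran from 0.00568 to 0.159. That call was also lost with a replicate block. Neither gene passed in a fit of only the arrays compared. Of all probe sets, 28.8% were free of overlap in the direction of hpxb. The calls were 2 of the 62 genes, against 2.1% of all probe sets. The gene rbp4l is mainly retinal and entered by name, not as a liver protein.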

How the results depend on the processing

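Counts here are of the 62 genes past the threshold. Over the settings tried, 384 values of counts and medians kept within 1.5 times the count or 1 SD of the mean over the genes (0.367), and 45 did not. A median smaller than 0.367 could reach 0 and still count as kept, and so did a count that stayed at 0. The medians at fluoxetine 25 (0.35), sertraline 25 (-0.08), sertraline 250 (0.27) and for the mean of the exposed groups (0.23) were all smaller. The tally therefore cannot show that these medians were stable. Among values of single genes 89 kept their call, 19 lost it, 4 gained it and 0 reversed. With 1 array left out, the counts ran from 1 to 19 at fluoxetine 25 (median 0.14 to 0.86), 0 to 2 at fluoxetine 250 (median 0.31 to 0.81), 1 to 30 between the drugs at 25 µg/L, 0 to 1 between them at 250 µg/L, 0 to 2 for the mean of the exposed groups (median 0.15 to 0.34) and 1 to 18 for any difference. Each highest count was reached without fluoxetine 25 replicate 3. Of all probe sets, 6.67%, 1.59%, 6.5%, 1.88%, 1.09% and 5.44% then passed, in the same order of comparisons. The counts stayed at 0 for sertraline 25 (median -0.17 to -0.02), sertraline 250 (median 0.15 to 0.37), both dose comparisons and the test of unequal dose effects. Where this left 2 arrays in a group, their spread was pooled with the other groups.

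Shares of all probe sets are not given beside the counts that follow, so these counts do not set the 62 genes apart from other genes. Without the 2 arrays with the largest GAPDH difference, counts were 18 at fluoxetine 25 (median 0.86), 3 at fluoxetine 250, 24 between the drugs at 25 µg/L, 1 for the mean of the exposed groups and 14 for any difference. Leaving out fluoxetine 25 replicate 3 alone raised the share of all probe sets from 2.53% to 6.67% at fluoxetine 25. Between the drugs at 25 µg/L it raised that share from 2.1% to 6.5%. Without the lowest 40% of probe sets, fewer genes enter: the fluoxetine 25 median was 0.77 and 2 genes passed for any difference. The count for any difference was also 2 with a trended and robust prior and with all probe sets of a gene averaged. At fluoxetine 250 the count was 1 with that prior and 1 with array weights, which also gave 1 between the drugs at 250 µg/L. Between the drugs at 25 µg/L it was 1 with quantile normalization, without moderated variances and with array weights. Fits of only the groups compared, and a test against a fold of 1.5, gave 0 at fluoxetine 25 and 0 between the drugs at 25 µg/L. With the hepatocyte list mean as a covariate the counts were 3 at fluoxetine 25, 3 between the drugs at 250 µg/L and 4 for any difference, and the fluoxetine 250 median was -0.0021. The causes were not tested. The GAPDH difference as a covariate moved no count.

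Whether the replicate numbers pair the beakers cannot be told from these arrays. The mean of its group was first subtracted from each value. On these remainders, same-numbered arrays correlated at a mean r of 0.09, -0.04 and -0.04 for numbers 1, 2 and 3. The highest r of a pair was 0.354, 0.183 and 0.396 in that order. Among arrays of other groups, 5 of 15 arrays correlated best with their own number. With a replicate block, 1 gene passed between the drugs at 25 µg/L, as hpxb had an adjusted p of 0.0502. Leaving out genes whose symbol fell outside the listed roles could give no value, since there were none. The retinal gene rbp4l, which entered by name, was kept in every setting. Low signal limits the 24 genes below a log2 mean of 3.90.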
